A study of Mus musculus with 6 samples.

Results

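The response to IFN-γ and LPS without drug was read from the M1 control library against the M0 control library, with 1 library each of the 6 libraries sequenced. Of the 54446 genes in the count table, 14168 had at least 10 counts in at least 1 of this pair and were compared. BMDMs were grown from bone marrow of male BALB/c mice aged 6 to 8 weeks, over 7 days in 20% L929-conditioned medium. The M0 library came from BMDMs left unpolarized and the M1 library from BMDMs given IFN-γ (20 ng/mL) with LPS (50 ng/mL) for 24 hours, and the labels give control, with DMSO, as the treatment of both. The other libraries were an M2 control (IL4, 20 ng/mL) and the same 3 states with regorafenib, a multikinase inhibitor, at 1 µM from 1 hour before polarization. The BMDMs were a mixed primary culture, and the sources used here do not say how many mice went into a library.

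IFN-γ binds its receptor on macrophages, and the kinases JAK1 and JAK2 then activate STAT proteins, which bind GAS elements in DNA and induce further transcription factors such as IRF1. LPS, from the outer membrane of Gram-negative bacteria, is sensed by TLR4 with CD14 and MD-2, and drives NF-κB, IRF3 and, through secreted type I interferon, the ISGF3 complex at ISRE elements. Given together, they produce the classically activated (M1) macrophage, known for nitric oxide, IL-12 and antigen presentation.

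The M0 and M1 control libraries held 27586063 and 31498101 counts, and the 10 genes with the most counts took 9.85% and 14.4% of them. Counts were scaled by TMM, and a level is given in counts or in CPM, the TMM-scaled counts set to a common library size. The log2 ratio is always M1 over M0, so a positive value is a higher level with IFN-γ and LPS. Its 95% interval comes from the 2 counts of a gene and covers counting error only. A gene was called at 2-fold or at 4-fold when its ratio reached that size and its interval excluded equal levels. With 1 library per side no call has a replicate check, and each describes this pair of libraries. The median log2 ratio of all genes compared was −0.05. Scaling by total counts in place of TMM would move every ratio by −0.44. Among genes named here, that would end the 2-fold calls of Ccl2, Ccl7, Cdkn1b, Scd2, Tlr2 and Mmp12 and bring Ctsb, Ctsd, Ftl1, Apoe, Srebf2, Lta4h, Ifngr1 and Ndufa4 past 2-fold lower.

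The labelled cell type was present in both libraries. The 12 macrophage markers summed to 31351 CPM in M0 and 31904 CPM in M1, of which Lyz2 alone made up 25969 and 18613 CPM. Csf1r, the receptor for CSF-1, had 52356 and 49500 counts (log2 ratio 0.17, interval 0.15 to 0.19), and Spi1, which encodes PU.1, had 7897 and 6994 counts (0.07). Inside the list the members differed: Adgre1 (F4/80) went from 19492 to 158131 counts (3.27) and Cd14 from 31650 to 103851 (1.96), while Cd68 went from 39757 to 8988 (−1.90) and Mrc1 (CD206) from 614 to 20 (−4.69). The defining T cell genes Cd3d, Cd3e, Cd3g and Cd8a were at 0 counts in both libraries. So were Ly6g, Elane and Retnlg of neutrophils and Ms4a1 and Pax5 of B cells. The T and NK cell list summed to 0.651 CPM in M0 and 1.90 CPM in M1, and its 1 tested member was called higher (1.80). The B cell list summed to 3.09 and 0.387 CPM, and its 1 tested member was called lower (−3.19). The neutrophil list as a whole summed to 110 CPM in M0 and 210 CPM in M1. Its S100a8 had 123 and 1804 counts and Camp 0 and 108, while S100a9 had 2 and 3, and the part of other cells in these values was not tested. All 12 listed fibroblast and stromal markers summed to 50.4 and 54.0 CPM, the monocyte markers to 55.0 and 117 CPM, and the mast cell and basophil markers to 0.423 and 3.83 CPM. The dendritic cell markers summed to 11.1 and 50.5 CPM, and 3 of the 5 tested were called higher (60.0%). All 3 reached the minimum of 10 counts in M1 alone, so this share is not comparable with the 16.7% of all genes. These were Ccr7 (2 and 780 counts), Xcr1 (0 and 36) and Kit (8 and 35), while Itgax had 316 and 439, Zbtb46 14 and 9, Flt3 0 and 3, Clec9a 1 and 0, and Siglech and Cd209a 0 in both. In bulk RNA, more cells that express a gene and more of its RNA per cell cannot be told apart, here or in any result that follows.

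At 2-fold, 2366 genes (16.7% of those compared) were called higher in M1 and 2651 (18.7%) lower. At 4-fold, 1284 (9.06%) were higher and 1346 (9.5%) lower. Of the 1284 genes, 981 were protein coding and 546 had at least 500 counts in M1. Of the 1346 genes, 1180 were protein coding and 583 had at least 500 counts in M0. The lower library held 3 or fewer counts for 420 of the higher and 366 of the lower genes. With total counts per library as the scale, the 2-fold split changed to 1676 higher and 4023 lower, and the 4-fold split to 993 and 1835. The plot of M1 against M0 levels shows where the named genes lie among all genes compared.

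**Figure D1:**
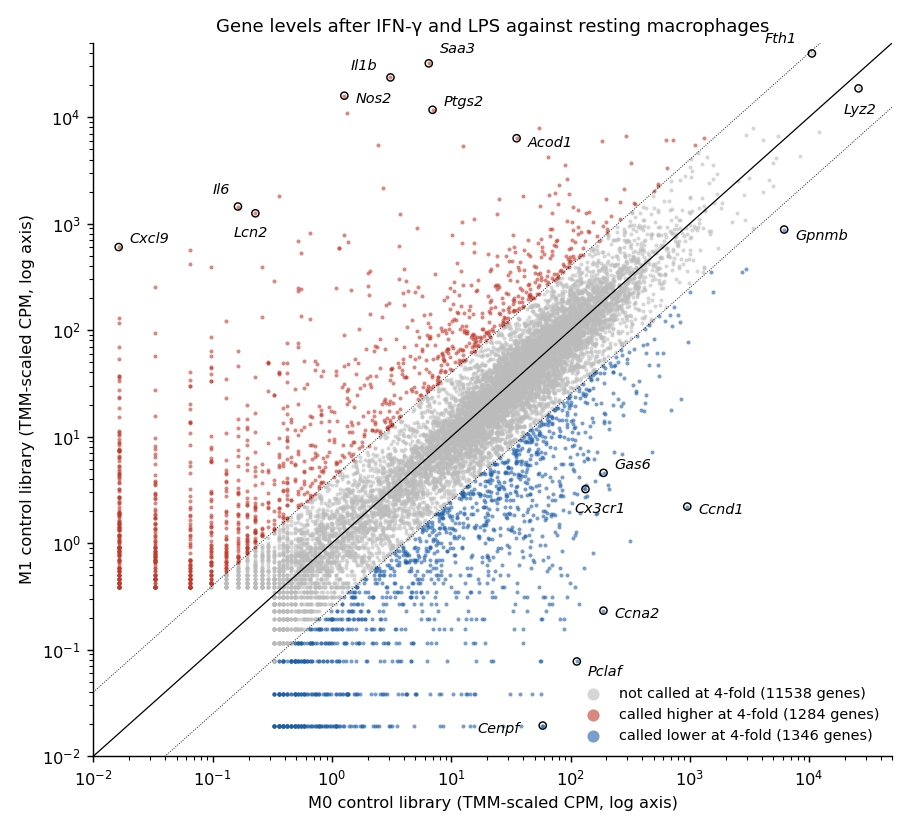
Level of each of the 14168 genes in the M1 control library (y) against the M0 control library (x), both as TMM-scaled CPM on log axes, with a count of 0 drawn as 0.5. Red points were called higher at 4-fold (1284 genes) and blue points lower (1346), dotted lines mark 4-fold, and Saa3, Il1b and Nos2 stand far above the line while Ccnd1, Ccna2 and Pclaf stand far below it.

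Several of the highest ratios among genes with 500 counts or more in M1 come first. Nos2 (chr11:78920787-78960254, GRCm38), which encodes inducible nitric oxide synthase, had 39 counts in M0 and 410649 in M1, a log2 ratio of 13.61 (13.16 to 14.10). Il1b (chr2:129364570-129371139), the pro-form of the cytokine IL-1β, had 95 and 609592 counts (12.90, 12.61 to 13.20), and Il1a, its neighbour on that chromosome, 41 and 283382 (interval 12.56 to 13.48). Saa3 (chr7:46711998-46715700), an acute-phase serum amyloid made by macrophages, went from 199 to 826553 counts (12.27, 12.07 to 12.48). Il6 followed with 5 and 37404 counts (13.12, 11.90 to 14.74), and Lcn2, a protein that traps bacterial siderophores, with 7 and 32293 (12.42). Cd38, an NAD-consuming surface enzyme, had 2 and 14614 counts (13.08, 11.23 to 16.13). U90926 had 2 and 10743 (12.64), and Itgb8, an integrin chain that binds latent TGF-β, 1 and 6574 (12.93, 10.45 to 18.24). Their wide intervals come from the few M0 counts.

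The 10 largest rises in scaled CPM were those of Saa3, Il1b, Fth1, Nos2, Ptgs2, Il1a, Slc7a2, Cybb, Acod1 and Clec4e. On the scale of CPM per kilobase of merged exon, which allows genes to be compared, Il1b reached 12372 in M1 and Saa3 12276, beside 11423 for Fth1, the ferritin heavy chain. Fth1 was already at 3045 in M0, so its log2 ratio was only 1.91 (324483 and 1023861 counts). Slc7a2, an arginine transporter, had 1663 and 202074 counts (7.17), Cybb, the catalytic chain of the phagocyte NADPH oxidase, 9026 and 173454 (4.51), and Clec4e, the glycolipid receptor Mincle, 5636 and 153437 (5.02). The largest falls in CPM were of genes that fill a resting macrophage. Lyz2 (lysozyme) had 797716 and 480906 counts, a ratio of −0.48 that was not called, and the cathepsins Ctsb (−0.73) and Ctsd (−0.83) and the ferritin light chain Ftl1 (−0.95) were not called either, although with total counts these 3 lie past 2-fold (−1.18, −1.27 and −1.39). Gpnmb, a lysosome-linked glycoprotein, had 189952 and 22729 (−2.81), Lpl, lipoprotein lipase, 90608 and 9691 (−2.98), and Spp1, osteopontin, 84530 and 9129 (−2.96). Lgals3 (galectin-3) had 104955 and 23281 (−1.92), Vim (vimentin) −1.05 and Eef1a1, a translation elongation factor, −1.13.

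The promoters of 5 of these responders are printed because they hold, or lack, the sequence elements named for the pathway. They are the 250 bases before the RefSeq start on the GRCm38.p6 build, 5′ to 3′ on the strand of the gene. Capitals mark matches to the ISRE core GAAANNGAA, the GAS element TTCNNNGAA and the NF-κB site, each searched on both strands. Gbp2 (chr3:142620413-142620662, plus strand) encodes a guanylate-binding protein, Cxcl10 (chr5:92348890-92349139, minus strand) a chemokine, and Irf1 (chr11:53769764-53770013, plus strand) a transcription factor. Il12b (chr11:44399813-44400062, plus strand) encodes the p40 chain of IL-12, and Acod1 (chr14:103046762-103047011, plus strand) the enzyme that makes itaconate.
Gbp2 promoter: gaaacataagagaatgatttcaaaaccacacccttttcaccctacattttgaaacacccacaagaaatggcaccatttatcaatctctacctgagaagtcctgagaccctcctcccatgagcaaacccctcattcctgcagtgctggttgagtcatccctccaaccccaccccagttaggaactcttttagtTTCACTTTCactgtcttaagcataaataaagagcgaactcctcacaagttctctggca
Cxcl10 promoter: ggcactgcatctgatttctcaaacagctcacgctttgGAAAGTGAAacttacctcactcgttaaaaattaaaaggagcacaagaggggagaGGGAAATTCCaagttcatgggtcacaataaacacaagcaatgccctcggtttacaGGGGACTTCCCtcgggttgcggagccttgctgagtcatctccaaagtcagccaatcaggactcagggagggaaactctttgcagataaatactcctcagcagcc
Irf1 promoter: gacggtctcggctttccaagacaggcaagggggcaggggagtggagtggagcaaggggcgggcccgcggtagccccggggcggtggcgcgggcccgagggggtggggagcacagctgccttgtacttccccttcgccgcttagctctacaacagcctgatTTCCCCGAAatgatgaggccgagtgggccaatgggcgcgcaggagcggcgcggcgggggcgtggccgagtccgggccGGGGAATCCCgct
Il12b promoter: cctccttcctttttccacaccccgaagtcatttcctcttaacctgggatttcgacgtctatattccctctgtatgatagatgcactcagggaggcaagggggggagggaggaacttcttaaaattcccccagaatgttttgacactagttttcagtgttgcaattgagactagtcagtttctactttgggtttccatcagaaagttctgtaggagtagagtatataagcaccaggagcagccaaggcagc
Acod1 promoter: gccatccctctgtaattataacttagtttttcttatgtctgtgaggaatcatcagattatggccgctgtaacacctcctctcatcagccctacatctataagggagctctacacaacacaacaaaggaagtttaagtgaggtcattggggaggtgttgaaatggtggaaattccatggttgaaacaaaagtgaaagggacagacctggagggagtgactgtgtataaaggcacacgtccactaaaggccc

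In the Gbp2 promoter the ISRE core stood 58 to 50 bases before the start, and Gbp2 had 749 counts in M0 and 31773 in M1 (5.66). In the Cxcl10 promoter the ISRE core stood 213 to 205 bases before the start, an NF-κB site 159 to 150 before it, and 2 overlapping NF-κB matches ran from 104 to 94. Cxcl10 had 467 and 3665 counts (3.22). The Irf1 promoter held a GAS element 90 to 82 bases before the start and an NF-κB site 13 to 4 before it, and Irf1 had 1040 and 15489 counts (4.15). None of the 3 motifs was in the printed bases of Il12b (3 and 10147 counts) or Acod1 (1085 and 163628). A match is a string of letters and not a shown binding site, and no match says only that these letters are not in this window.

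Over all windows, each 250 bases before to 50 after the start, 10071 of the 14168 genes had one. The ISRE core was in 14.2% of the 845 windows of genes called higher at 4-fold, in 6.15% of the 959 called lower, in 6.93% of the 8267 called neither way and in 8.58% of all 27026 promoters. The NF-κB site was in 15.1%, 9.8%, 9.77% and 8.23% of the same groups, and the GAS element in 9.47%, 6.05%, 6.8% and 8.38%. A GAS match overlapped an ISRE match in 3 of the 845 windows. By list, the ISRE core was in 5 of 5 windows of guanylate-binding proteins, in 6 of 7 of the immunity-related GTPases and in 14 of 22 of the genes induced by type I interferon. The NF-κB site was in 9 of 17 windows of the NF-κB feedback list, which held an ISRE core in 2. The 33 windows of cell cycle genes held 1 ISRE core, 2 GAS elements and 4 NF-κB sites.

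**Figure D2:**
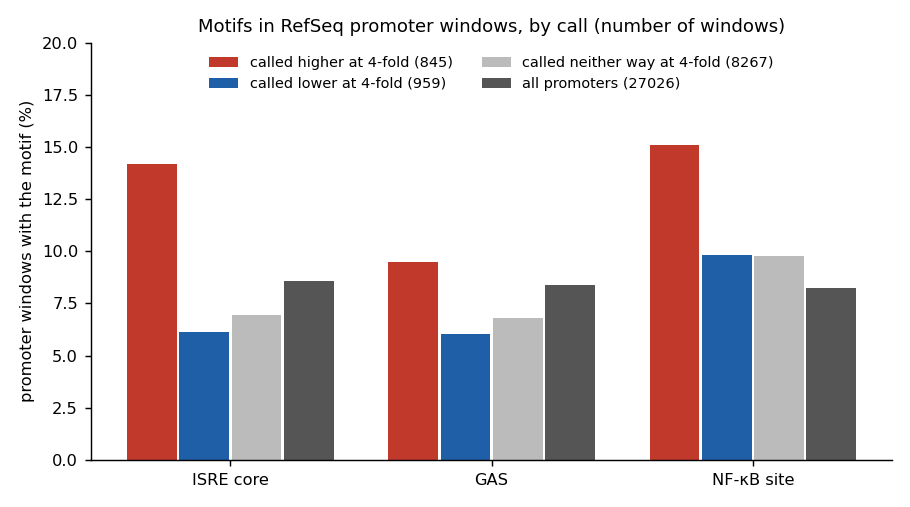
Percent of RefSeq promoter windows (y) that hold the ISRE core, the GAS element or the NF-κB site (x), for genes called higher at 4-fold (845 windows), lower (959), neither way (8267) and all promoters (27026). Genes called higher have the tallest bar for each motif, at 14.2%, 9.47% and 15.1%.

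Cytokine genes were higher almost throughout. Of 22 cytokines with enough counts, 20 were called higher at 2-fold and 0 lower, beside 16.7% and 18.7% of all genes. Their median log2 ratio was 5.47, or 5.12 with counts of 3 or fewer set to 3. The IL-12 family supplied several genes from near 0: Il12a (p35) had 0 and 3024 counts, at least 1198-fold higher against the floor of 3 counts, and Il12b (p40) 3 and 10147 (11.97, 10.43 to 14.25). Il27, the p28 chain of IL-27, had 9 and 1269 counts (7.39), and its partner Ebi3 842 and 4030 (2.51). Il23a, the p19 chain of IL-23, had 0 and 7 counts and fell under the minimum. Tnf was already transcribed at rest, with 2029 counts in M0 and 48221 in M1 (4.82, 4.76 to 4.89).

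The growth factor Csf3 (G-CSF) had 0 and 3393 counts, at least 1345-fold higher, Csf2 (GM-CSF) 0 and 70, at least 27.7-fold higher, and Csf1 115 and 601 (2.64). Inhba, the activin A chain, had 16 and 17724 counts (10.36, 9.66 to 11.17). Il1rn, the IL-1 receptor antagonist, had 1227 and 47283 (5.52), Il18bp, which neutralizes IL-18, 124 and 4484 (5.43), and Il10 24 and 497 (4.62, 4.03 to 5.28). Il18 itself had 132 and 134 counts (0.27, −0.09 to 0.63), and Tgfb1 7522 and 4492 (−0.49). Ifnb1, the gene of interferon-β, had 1 and 4 counts after 24 hours.

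Of the chemokine genes 11 of 12 CXC and 9 of 11 CC members were called higher, beside 16.7% of all genes. Cxcl9, a ligand of CXCR3 on T cells, had 0 and 15565 counts, at least 6168-fold higher. Its relatives Cxcl10 (3.22) and Cxcl11 (15 and 731 counts, 5.86) bind the same receptor. The neutrophil attractants Cxcl3 (11 and 46563, 12.30), Cxcl1 (82 and 55487, 9.65) and Cxcl2 (383 and 137159, 8.73) were among the strongest, and Cxcl14 was lower (1251 and 323, −1.70). Among CC genes Ccl5 (RANTES) led with 75 and 142438 counts (11.14, 10.81 to 11.49), before Ccl22 (9 and 1295, 7.42) and Ccl3 (2769 and 92724, 5.32). The monocyte attractants Ccl2 (11274 and 19070, 1.01) and Ccl7 (3304 and 5671, 1.03) lay just past 2-fold, both from a high M0 level, and with total counts neither would be called. In the same list Ccl6 was lower (1714 and 159, −3.18).

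Receptors for such attractants split. The formyl peptide receptors Fpr1 (8 and 10089, 10.55) and Fpr2 (39 and 20337, 9.28), which sense bacterial peptides, were higher, as was Ccr7, the lymph node homing receptor (2 and 780, 8.86, 7.0 to 11.91). Cx3cr1, the fractalkine receptor, had 4099 and 83 counts (−5.38, −5.71 to −5.06), Cxcr4 4690 and 388 (−3.35) and Ccr2 325 and 29 (−3.24). In all 4 of 15 receptors were called higher and 7 lower (26.7% and 46.7%, against 16.7% and 18.7% of all genes).

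The interferon-inducible GTPases, which coat and break the vacuoles of intracellular pathogens, were called higher without exception in this pair: 11 of 11 guanylate-binding proteins and 8 of 8 immunity-related GTPases, all at 4-fold as well, beside 9.06% of all genes. The guanylate-binding proteins had a median log2 ratio of 6.4 and went from 103 to 6171 CPM in sum. Gbp4 had 35 and 15210 counts (9.01), Gbp5, which promotes inflammasome assembly, 115 and 31717 (8.36), and Gbp9 911 and 8421 (3.46). Among the immunity-related GTPases, Iigp1 had 44 and 6153 counts (7.38), Igtp (Irgm3) 743 and 10488 (4.07) and Irgm1 2906 and 12057 (2.30). Near-identical copies share reads here: 76.8% of the 100-base words of Tgtp2, 73.2% of Tgtp1, 73.5% of Gbp10 and 64.5% of Gbp6 also occur in another gene, so the values of those members are uncertain.

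Of 29 genes induced by type I interferon, most of them antiviral, 26 were called higher at 2-fold and 18 at 4-fold (16.7% and 9.06% of all genes), with a median log2 ratio of 2.19, and they summed to 2395 CPM in M0 and 10713 CPM in M1. Zbp1, a sensor of Z-form nucleic acid, had 736 and 12724 counts (4.36), Isg15, a ubiquitin-like modifier, 1245 and 14512 (3.79), Ifit1 1413 and 12952 (3.45) and Rsad2 (viperin) 2231 and 16421 (3.13). Oas2 (0.51), Eif2ak2, the kinase PKR (0.91), and Ifit3b (0.09) were not called. The M0 control level that these ratios are taken against was higher than in other libraries without IFN-γ and LPS. Isg15 had 173 counts in M0 with regorafenib and 272 in the M2 control, against 1245 in the M0 control. Cxcl10 had 66 and 48 counts in those libraries, against 467 in the M0 control.

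Of the transcription factors that carry the signal, Irf1 (4.15) and Irf7, the amplifier of type I interferon (6147 and 44347 counts, 3.10), were called higher. Irf8 (0.78), Irf9 (0.61), Irf3 (−0.13) and Irf5 (−0.06) were not called, and Irf4, which serves IL4 responses, was lower (55 and 17, −1.44). In all 2 of 8 were called higher and 1 lower, which is near the 16.7% and 18.7% of all genes. Stat2 had 4669 and 15302 counts (1.96) and Stat3 3047 and 12545 (2.29), while Stat6, which serves IL4, had 11636 and 9305 (−0.07). Of 22 JAK-STAT pathway genes tested, 10 were called higher and 1 lower (45.5% and 4.5%, against 16.7% and 18.7% of all genes), with a median of 0.91. The highest ratio among them was that of the feedback inhibitor Socs3, with 159 and 23535 counts (7.46, 7.23 to 7.69). Socs1, another such inhibitor, had 63 and 5476 (6.69). Jak2 had 1011 and 19989 counts (4.55). The receptor chains differed in direction, with Ifngr2 at 2409 and 5571 (1.46) and Ifngr1 at 1634 and 930 (−0.56, not called), and Il6st, the shared chain gp130, was lower (−1.17).

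Of 21 genes of the MHC class I pathway 20 were called higher (16.7% of all genes), with a median log2 ratio of 2.31 and a sum of 5904 CPM in M0 and 22932 CPM in M1. They included B2m, the light chain (33670 and 140516, 2.31), H2-K1 (16759 and 58045, 2.04), the peptide transporter Tap1 (1775 and 14348, 3.26), the immunoproteasome chain Psmb9 (1036 and 4809, 2.46) and Nlrc5, the class I transactivator (1703 and 8871, 2.63). Of 13 class II pathway genes 10 were higher (median 3.66), while the sum went only from 3471 to 4306 CPM, of which Ctss, cathepsin S, made up most (3163 and 2692 CPM, not called). Higher members were H2-Ab1 at 368 and 9366 (4.92), Cd74, the invariant chain, at 1745 and 18600 (3.66) and Ciita, the class II transactivator, at 47 and 495 (3.65, 3.21 to 4.11). Ifi30, a lysosomal thiol reductase of the same pathway, was lower (5268 and 1284, −1.79). The part of the dendritic cell markers, whose sums are given above, in the class II and costimulation values was not tested.

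Among 17 costimulatory and checkpoint genes 11 were called higher and 0 lower, against 16.7% and 18.7% of all genes. Cd40 had 61 and 8957 counts (7.45, 7.09 to 7.84), Cd86 95 and 888 (3.47) and the adhesion molecule Icam1 3626 and 12562 (2.04). Cd274, which encodes the inhibitory ligand PD-L1, had 768 and 43548 (6.08, 5.97 to 6.18). Cd80 had 798 and 607 (−0.15, −0.30 to 0.01), and Pdcd1lg2 (PD-L2) 0 and 6.

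In the arginine and nitric oxide list 6 of 14 genes were called higher and 4 lower (42.9% and 28.6%, against 16.7% and 18.7% of all genes). Nos2 with its cofactor enzyme Gch1 (1713 and 4072, 1.5) and the arginine-recycling enzyme Ass1 (3033 and 11474, 2.17) were higher. The polyamine enzymes Srm (1069 and 324, −1.47) and Sms (2910 and 594, −2.04) were lower. Of the tryptophan list 4 of 7 genes (57.1%) were called higher, among them Il4i1 (5 and 379, 6.49) and Ido1, which stayed low (5 and 46, 3.45).

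Acod1 was the single gene called higher among the 23 of the itaconate and citrate cycle list (5 were lower, against 16.7% higher and 18.7% lower of all genes, so the lower share is near that of all genes), with 1085 and 163628 counts (7.49, 7.4 to 7.57). Those called lower included the isocitrate dehydrogenase genes Idh1 (5843 and 1403, −1.81), Idh2 (2699 and 778, −1.54) and Idh3a (2199 and 752, −1.30), while the succinate dehydrogenase chains Sdhb (0.21) and Sdha (−0.43) were not called. None of the 27 respiratory chain genes was called, and they ran from −0.56 (Ndufa4) to 0.42 (Ndufs3). All positive respiratory chain ratios turn negative with total-count scaling, so no direction is read from them.

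Of 26 glycolysis and hypoxia genes 22 were called higher and 0 lower, beside 16.7% and 18.7% of all genes, with a median log2 ratio of 1.86. Slc2a1, the glucose transporter GLUT1, had 3194 and 37178 counts (3.79), Hk2 (hexokinase) 1841 and 13364 (3.11), Pfkfb3, which drives phosphofructokinase, 1714 and 37896 (4.72), Ldha (lactate dehydrogenase) 36149 and 118339 (1.96) and the lactate exporter Slc16a3 3145 and 26565 (3.33). The HIF targets Egln3 (64 and 3670, 6.09) and Vegfa (134 and 6070, 5.75) were higher, and Hif1a itself had 4706 and 11158 (1.5). Pkm (0.58) and Aldoa (0.79) were not called. Gapdh, often used as a reference gene, had 42595 and 107965 counts (1.59).

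Of 27 sensors of microbes 13 were called higher (48.1%, against 16.7% of all genes) and 5 lower (18.5%, the share of all genes being 18.7%). Cd14 (1.96), Tlr2 (3259 and 6990, 1.35), Nod2 (415 and 2531, 2.86) and Nod1 (153 and 1369, 3.41) were higher, while Tlr4, the LPS receptor, was lower (4854 and 1934, −1.08), with Tlr13 (14589 and 3274, −1.91), Tlr8 (3427 and 859, −1.75) and Tmem173, which encodes STING (768 and 203, −1.67). Irak3, a brake on TLR signalling, had 660 and 9729 counts (4.13).

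The NF-κB feedback list held 16 genes called higher of 20 and 0 lower (median 2.46), against 16.7% and 18.7% of all genes. Tnfaip3 (A20) had 1058 and 14099 counts (3.99), Nfkbia (IκBα) 2871 and 27604 (3.51), Nfkbiz 322 and 6053 (4.48) and Nfkb2 1583 and 10016 (2.91), while Rela had 2385 and 3895 (0.96, not called). In the inflammasome and cell death list 8 of 17 genes were called higher and 2 lower (47.1% and 11.8%, against 16.7% and 18.7% of all genes). Nlrp3 had 2342 and 17880 (3.18), Casp4, the sensor of cytosolic LPS, 639 and 3906 (2.86), and Mlkl, the executor of necroptosis, 827 and 4688 (2.75). Pycard, the adaptor ASC, was lower (1384 and 197, −2.56), and Gsdmd (0.71) and Aim2 (−0.01) were not called. Of 14 survival genes 4 were higher and 3 lower, not far from the shares of all genes (16.7% and 18.7%). Bcl2 (791 and 162, −2.04) and Bcl2l1 (5783 and 2027, −1.26) were lower. The Bcl2a1 copies were higher, with Bcl2a1d at 60 and 921 (4.19), but share much of their sequence and are uncertain one by one.

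Antimicrobial and acute-phase genes had a median log2 ratio of 6.18 (5.93 with counts of 3 or fewer set to 3), and 17 of 19 were called higher, against 16.7% of all genes. Beside Saa3 and Lcn2 they held Cp, the copper oxidase ceruloplasmin (1 and 2439, 11.50, 9.02 to 16.81), Hp, haptoglobin (16 and 6489, 8.91), and Slpi, a protease inhibitor (52 and 2668, 5.93). Of 17 complement genes 6 were called higher and 7 lower (35.3% and 41.2%, against 16.7% and 18.7% of all genes). The central component C3 had 1972 and 110062 counts (6.05) and its convertase partner Cfb 0 and 1371, at least 543-fold higher, though 66.9% of its words occur in an overlapping gene model. The recognition chains C1qa (395 and 50, −2.73) and C1qc (2110 and 257, −2.79) were lower.

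Of 15 iron and metallothionein genes 7 were called higher and 2 lower, and of 20 redox genes linked to NRF2 9 were higher and 2 lower. The shares called higher (46.7% and 45.0%) were above, and those called lower (13.3% and 10%) below, the 16.7% and 18.7% of all genes. Hmox1, heme oxygenase, had 19640 and 86691 counts (2.39), Slc11a1 (Nramp1) 8673 and 22800 (1.64) and Mt2, a metallothionein, 382 and 6841 (4.41), while Steap3, an endosomal ferrireductase, had 1263 and 42 (−4.66). Slc40a1, the iron exporter ferroportin, had 235 and 240 (0.28). Sod2, the mitochondrial superoxide dismutase, had 2454 and 59183 (4.84), Prdx5 2891 and 68306 (4.81) and the cystine transporter Slc7a11 309 and 19989 (6.27), whereas Gpx1 was lower (40457 and 9816, −1.79) and Nfe2l2, which encodes NRF2, was not called (0.34).

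Of 15 tested prostaglandin and leukotriene genes 2 were called higher and 6 lower, beside 16.7% and 18.7% of all genes. Ptgs2 (COX-2) had 214 and 302844 counts (10.72, 10.52 to 10.92) and Ptges, the inducible prostaglandin E synthase, 113 and 15891 (7.39). Ptgs1 (COX-1) had 1770 and 30 (−5.63), and Hpgds, the prostaglandin D synthase, 5218 and 1317 (−1.74). Of the leukotriene genes lower levels were called for Alox5 (arachidonate lipoxygenase) at 3439 and 33 (−6.45, −6.99 to −5.96), its activating protein Alox5ap at 14976 and 3246 (−1.96) and Ltc4s at 205 and 16 (−3.43). Lta4h was not called (2178 and 925, −0.99).

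**Figure D3:**
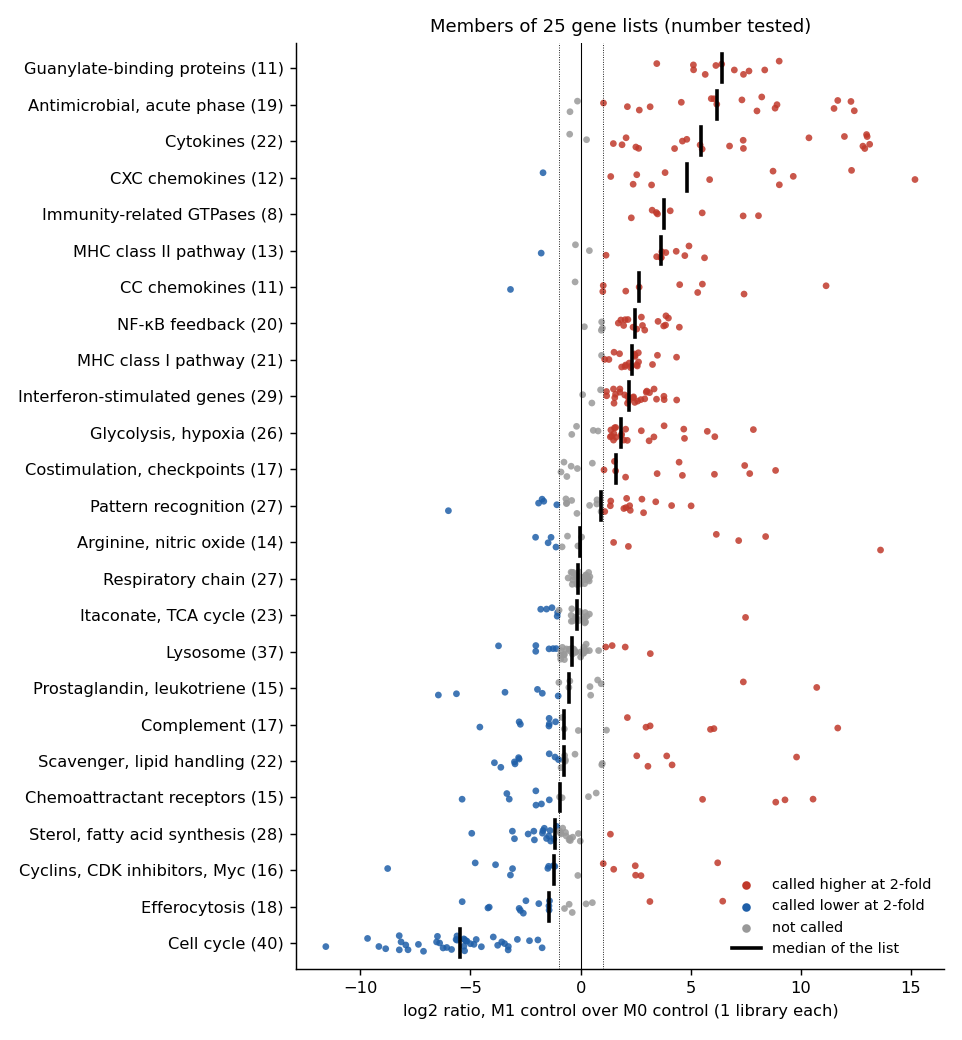
Log2 ratio of M1 control over M0 control (x) for each tested member of 25 gene lists (y, number tested in parentheses), with 1 library each, dotted lines at 2-fold and a black bar at the list's median. Medians run from 6.4 for the guanylate-binding proteins to −5.45 for the cell cycle, where all 40 members are called lower.

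Clearance of dying cells, which macrophages do quietly at rest, was represented by 18 genes, of which 11 were called lower (61.1%, against 18.7% of all genes) and 2 higher (11.1%, against 16.7%), with a median of −1.43. Gas6, the bridge between phosphatidylserine and the TAM receptors, had 5812 and 118 counts (−5.37, −5.65 to −5.11), its homolog Pros1 1446 and 66 (−4.20) and Itgb5 5882 and 817 (−2.60). The receptors Mertk (380 and 2829, 3.15) and Timd4 (18 and 1324, 6.45) were higher, and Axl was not called (2369 and 1392, −0.52). Trem2, a lipid receptor of tissue macrophages, had 16943 and 948 counts (−3.91), Lipa, lysosomal acid lipase, 48532 and 5914 (−2.79) and Fabp5 8678 and 912 (−3.0). In the same scavenger and lipid list Marco, a receptor for bacteria, had 10 and 7506 (9.80, 8.92 to 10.86), Abca1, the cholesterol exporter, 513 and 7675 (4.15), and Ch25h, which makes 25-hydroxycholesterol, 405 and 2834 (3.06).

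Of 28 genes of sterol and fatty acid synthesis 15 were called lower (18.7% of all genes) and 1 higher (Scd2, 3096 and 6655, 1.35), with a median log2 ratio of −1.15. Elovl6 had 401 and 11 counts (−4.94), Dhcr7, the last step to cholesterol, 1107 and 109 (−3.09), Fasn, fatty acid synthase, 5012 and 527 (−3.0), and Idi1 619 and 100 (−2.38). The regulator Srebf2 had 6089 and 3260 (−0.65) and was not called.

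All 40 genes of the cell cycle list were called lower at 2-fold and 38 at 4-fold, beside 18.7% and 9.5% of all genes, with a median log2 ratio of −5.45 and a sum that went from 5713 to 346 CPM. The M0 control held the highest such sum of the 6 libraries, and against this same M0 control 36 of the 40 genes were also called lower in the M2 control, with a median of −1.26. Ccna2, cyclin A2, had 5799 and 6 counts (−9.67, −11.11 to −8.54), the mitotic kinase Plk1 2033 and 7 (−7.93), Top2a 14792 and 185 (−6.07), the replication helicase chain Mcm5 7119 and 187 (−5.0), and Mki67, the gene of Ki-67, 18430 and 1589 (−3.29). Cenpf had 1796 and 0, at least 504-fold lower. Outside the list, low ratios included that of the PCNA-associated factor Pclaf (3469 and 2, −10.51, −13.56 to −8.66). Ube2c (2707 and 4), Bub1b (2731 and 5), Pbk (1727 and 1), Aspm (1695 and 2), Kntc1 (2520 and 5), Pimreg (1465 and 1) and Shcbp1 (1231 and 3) are also mitotic, and Kif2c (1781 and 0) and Neil3 (1180 and 0) were at least 499-fold and 331-fold lower. E2f7, a repressor of E2F targets, had 1160 and 1. Rasgrp3, a Ras activator and not a cell cycle gene, had 3602 and 7 (−8.76).

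Of 16 cyclin, CDK inhibitor and Myc genes 6 were called higher and 9 lower (37.5% and 56.2%, against 16.7% and 18.7% of all genes). Ccnd1, cyclin D1, a target of CSF-1 signalling (chr7:144929931-144939925), had 29262 and 57 counts (−8.75, −9.16 to −8.38). Myc had 1142 and 113 (−3.09) and Cdk4 4926 and 1843 (−1.17), while the CDK inhibitor Cdkn1a (p21) had 15347 and 36594 (1.5) and Cdkn1b (p27) 1002 and 1719 (1.03). Ccnd2 went the other way from Ccnd1, with 363 and 1723 (2.50). In the Schlafen family, which is linked to immune cell quiescence, 6 of 8 genes were called higher (75.0%), Slfn1 from 16 to 1946 counts (7.18) and Slfn4 from 197 to 3037 (4.20), and Slfn9 was lower (6006 and 417, −3.60).

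Lineage transcription factors were split and had a median of 0.19, with 11 of 30 higher and 9 lower (36.7% and 30.0%, against 16.7% and 18.7% of all genes), and the median turned to −0.26 with total counts. Batf2 (130 and 2776, 4.67), Batf (96 and 1113, 3.78), Runx3 (260 and 1376, 2.65) and Cebpb (1015 and 4904, 2.52) were higher. Cebpa (1744 and 187, −2.97), Klf2 (1680 and 290, −2.28), Klf4 (1677 and 325, −2.12) and Maf (5018 and 1972, −1.10) were lower. Of growth factor receptors, Csf2rb, the common β chain, was higher (5729 and 24562, 2.35) and Tgfbr2 lower (14675 and 3167, −1.96). Fcgr2b, the inhibitory Fc receptor, had 1362 and 13337 (3.54), Fcgr4 286 and 1728 (2.84), and Fcgr3 was not called (−0.22).

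Genes for matrix and movement were higher more often than lower (13 and 5 of 24, beside 16.7% and 18.7% of all genes, so the share called lower is near that of all genes). Mmp14, a membrane collagenase, had 35 and 15213 counts (9.01), Mmp13 345 and 11080 (5.25) and the integrin chain Itgal of LFA-1 3214 and 22665 (3.07). The protease inhibitor gene Timp2 (13056 and 539, −4.35) and Plau, urokinase (8531 and 410, −4.13), were lower. Of the adenosine receptors, Adora2a was higher, from 2 to 1045 (9.28, 7.42 to 12.33), as was Adora2b, from 238 to 2323 (3.54), and the ADP receptors P2ry1 (555 and 19, −4.62) and P2ry12 (160 and 14, −3.26) were lower. Of 37 lysosomal genes 4 were called higher and 6 lower, shares of 10.8% and 16.2% that are not above the 16.7% and 18.7% of all genes, with a median of −0.37 and members between Ctsc (4371 and 32951, 3.16) and Atp6v0d2 (597 and 38, −3.72).

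Of 15 tested markers of IL4-driven polarization 8 were called lower and 5 higher (53.3% and 33.3%, against 18.7% and 16.7% of all genes). Pparg had 559 and 5 counts (−6.56), Mrc1 614 and 20 (−4.69), Clec10a 83 and 6 (−3.54), Flt1 478 and 37 (−3.44) and Egr2 263 and 60 (−1.88). Retnla and Chil3, defining mouse M2 markers, had 0 counts in the M0 control and 2 and 1 in the M1 control. Among the 5 higher were Ccl22, Ccl17 (1 and 19, 4.50, 1.84 to 9.87), Tgm2 (6742 and 30540, 2.43) and Mmp12 (12787 and 27787, 1.37). The M2 control, which is compared with the same M0 control, gives the other side: Mrc1 had 24237 counts there, Retnla 941 and Chil3 379. Nos2 had 47 counts in the M2 control and Il1b 98, close to their M0 counts. For M2 over M0 the guanylate-binding proteins had a median of −2.44 on the log2 scale. Their sum was 103 CPM in the M0 control and 26.2 CPM in the lowest of the 6 libraries. The part of the M0 control level in that median was not tested. In the plot of levels by library, Nos2, Il1b and Il12b stand above the other states in both M1 libraries, and Retnla is above 3 counts in the M2 libraries alone.

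**Figure D4:**
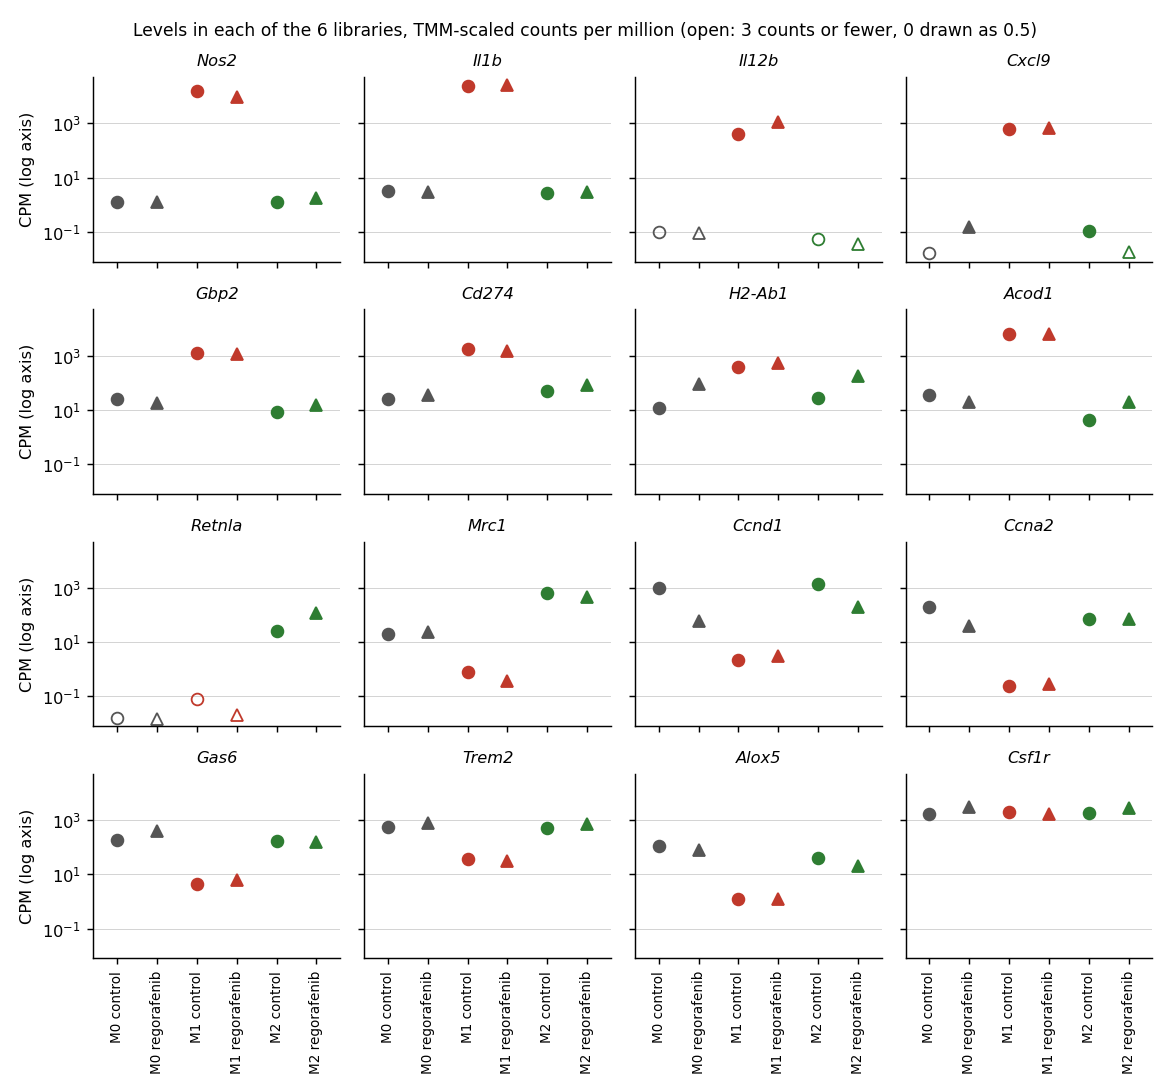
TMM-scaled CPM (y, log axis) of 16 genes in each of the 6 libraries (x), 1 point per library, with circles for control and triangles for regorafenib and open symbols at 3 counts or fewer. Nos2 and Il1b are high in both M1 libraries alone, Ccna2 and Gas6 low in both, and Retnla above 3 counts in the M2 libraries alone.

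The pair of regorafenib libraries, M1 over M0, shares no library with the control pair, and was set beside it although it holds the drug and is not a replicate. Across the 13675 genes compared in both pairs the log2 ratios had a Pearson r of 0.87 and a Spearman rho of 0.76, given as a description across genes, which are not independent. Of the 1284 genes called higher at 4-fold without drug, 858 were called higher with it, which is 66.8% of the control calls and 72.7% of the 1180 regorafenib calls. Of the 1346 genes called lower, 847 were lower in both, 62.9% of the control and 60.2% of the 1407 regorafenib calls. At 4-fold, 2 genes called higher and 2 called lower without drug were called the opposite way with it, and none of these 4 reached 100 counts on the higher side in each pair.

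The sizes differed by group, and that difference was not tested, as there was 1 library per condition. The cell cycle list had a median of −5.45 without drug and −3.37 with it, and Ccnd1 had 29262 counts in the M0 control but 1921 in M0 with regorafenib, before 57 and 76 in the M1 libraries. The interferon-stimulated list had medians of 2.19 and 3.81. Class II genes went the other way, 3.66 and 1.5, with H2-Ab1 at 368 counts in the M0 control and 3030 in M0 with regorafenib. CC chemokines had medians of 2.66 and 8.12: Ccl2 had 11274 and 19070 counts without drug (1.01) and 149 and 33467 with it (8.26), and Ccl7 ratios of 1.03 and 8.23. Apoe, an apolipoprotein, was not called without drug (1184 and 617, −0.69) and had 41460 and 613 counts with it (−5.63), and Lpl had ratios of −2.98 and −0.37. In Ccnd1, H2-Ab1, Ccl2 and Apoe the 2 M0 libraries lay further apart than the 2 M1 libraries. The plot of both pairs sets the 2 ratios of each gene side by side.

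**Figure D5:**
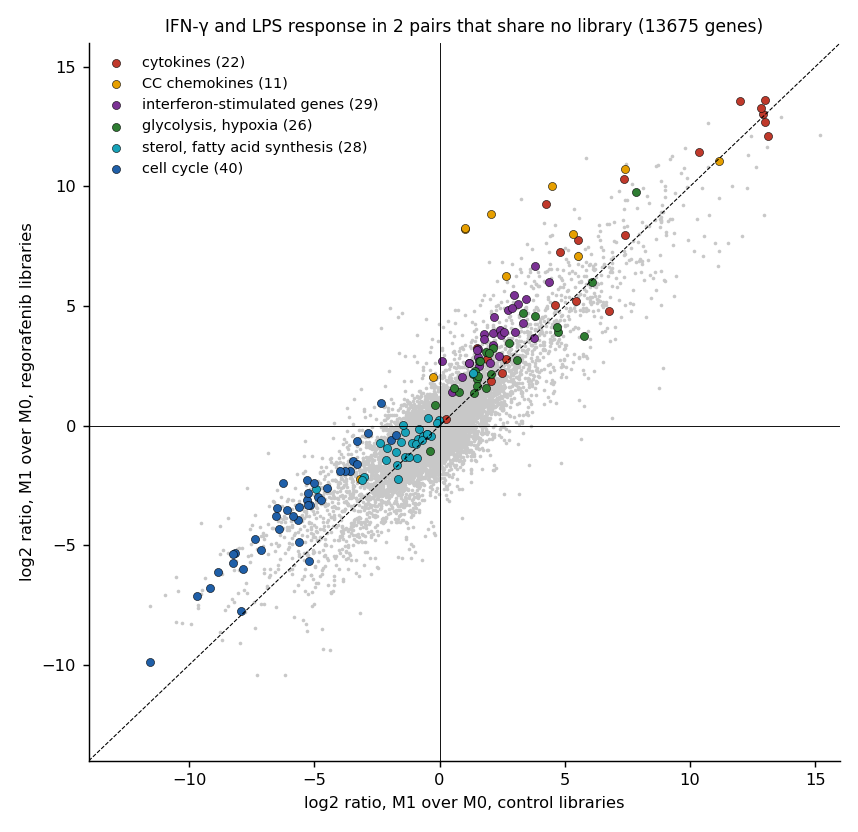
Log2 ratio of M1 over M0 in the regorafenib libraries (y) against that in the control libraries (x), 1 point per gene for 13675 genes, with 6 lists coloured and the dashed line at equal ratios. Cell cycle genes lie above the line at the lower left (medians −5.45 and −3.37), and the CC chemokines Ccl2, Ccl7 and Ccl12 lie far above it.

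A shift common to both drug arms was the only one tested. With edgeR's quasi-likelihood test (state and treatment as terms, all 6 libraries, Benjamini-Hochberg adjustment), 2609 of 14110 genes were higher in M1 than in M0 (18.5%) and 2565 lower (18.2%). With total counts as the scale the same test gave 1629 higher and 5113 lower. Il1a (13.37 ± 0.42 SE on the log2 scale), Nos2 (13.33 ± 0.55, adjusted p 0.000248) and Il1b (13.02 ± 0.40) were among the highest estimates. Il12a and Csf3 rose and Cenpf, E2f7, Kif2c, Pbk and Pimreg fell as well, but each had 2 or fewer counts in both libraries of one state, so the size of its estimate depends on the prior count and is not given. By list, 11 of 11 guanylate-binding proteins rose, with 28 of 29 interferon-stimulated genes, 21 of 21 class I genes and 24 of 26 glycolysis and hypoxia genes, and 36 of 40 cell cycle genes and 17 of 28 sterol genes fell. Fewer members passed than were called in the control pair among the CC chemokines (6 of 11 higher), the antimicrobial genes (13 of 18) and the class II genes (8 of 13 higher, 1 lower). Ccl2 (adjusted p 0.0827), Lpl (0.0954) and Myc (0.0726) did not pass in edgeR, although each was called in the control pair. The labels do not say that the libraries came from separate cultures, and the spread in this fit is that between states in their response to the drug, which may include technical variation.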

How the data were processed

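RNA of BMDMs was sequenced as 6 stranded mRNA libraries, 1 per condition. Raw read counts per gene, whole numbers with no scaling, are what the authors deposited. Per their methods and the submitters' processing notes, cutadapt 2.4 removed adaptors and STAR 2.7.2a aligned the reads to GRCm38 and counted them over GENCODE genes. Which strand column was taken is not given in the sources used here, so reads of overlapping genes may be misassigned. Names and positions came from the annotation given with the data (53229 of 54446 IDs matched with version, 1180 without, 37 unnamed). Groups followed the labels.

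TMM factors were computed over the 6 libraries (edgeR 4.0.16, R 4.3.3), 1.11 for the M0 control and 0.820 for the M1 control, whose totals were 27586063 and 31498101 counts. Ratios, intervals and lists were computed in Python 3.11.15 with pandas 2.3.3, scipy 1.17.1 and numpy 2.4.6. Genes needed 10 counts in 1 library of the pair. A count of 0 was replaced by 0.5 in ratios, and 3 counts were the floor for bounds. Intervals are conditional exact binomial at 95%. Both drug arms were tested together with edgeR's quasi-likelihood test (Benjamini-Hochberg adjusted p under 0.05), with DESeq2 1.42.0 as an alternative. The SE given with an edgeR estimate is its absolute size over the square root of its F statistic. The edgeR step was tested on simulated data. Motifs were searched in RefSeq promoter windows, and shared reads judged from 100-base words.

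Named genes are first the 15 highest and 15 lowest ratios among 4-fold calls that reached 500 counts on the higher side. For this ranking, counts under the floor used for bounds were set to that floor. Others are the 10 largest rises and 10 largest falls in CPM, and the 5 highest and 5 lowest edgeR estimates that reached 500 counts. Members of the described lists are named as well. The lists and the comparison were chosen with earlier results of these data known. NOISeq without replicates, which the study's methods name for such data, was not used here. A few genes that this rule would name are not reported here.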

Additional observations from a re-analysis of the deposited data

How the results depend on the processing

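With 1 library per condition, the ratios have no replicate error, and depth limits ratios of genes near 0 counts. Scaling moved the balance most: with total counts 4023 genes were lower at 2-fold, and edgeR called 1629 higher and 5113 lower. A minimum of 100 counts left 1531 genes higher at 2-fold and 767 at 4-fold, with fewer genes compared. Adding 1 CPM to both values left 696 higher and 742 lower at 4-fold. Other alternatives (TMM over the pair, median of ratios, no minimum, counts of 3 or fewer set to 3) stayed within 1.5 times of the counts given. The scalings moved every log2 ratio by 0.01, 0.05 or −0.44, so a list member called at 2-fold could not change sign. Many list members that were not called did so with total counts. For both arms, DESeq2 gave 2579 higher and 2584 lower, edgeR on the 4 libraries of M0 and M1 2137 and 2159, and leaving out each library of M0 and M1 in turn 1997 to 2658 higher and 2121 to 2425 lower, with the lone library of a condition assumed to vary like the others. No paired analysis was possible because the labels give no replicate numbers, so the edgeR fit holds the drug arm as a term but no replicate block.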

Other observations

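Genes outside the lists, chosen after their values were seen, gave further values in the control pair, with no list or test behind them. F3 (tissue factor) had 4 counts in M0 and 592 in M1 (log2 ratio 7.46, 6.10 to 9.34), F10 64 and 9226 (7.42), Procr, the protein C receptor, 480 and 16848 (5.38) and Thbs1 (thrombospondin) 62 and 6648 (6.99). Thbd, thrombomodulin, was lower (490 and 36, −3.52), and Tfpi, the inhibitor of tissue factor, was not called (287 and 273, 0.18). The vasoactive peptides Edn1 (endothelin) and Adm (adrenomedullin) had 0 counts in M0 and 860 and 955 in M1, and the IL-36 genes Il1f6 and Il1f9 went from 0 to 957 and from 3 to 1131.

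Some were genes of long noncoding RNAs. AW112010 had 20 and 20927 counts (10.28), Mir155hg, the host of miR-155, 3 and 1476 (9.19, 7.64 to 11.47), and Ptgs2os2, on the other strand downstream of Ptgs2, 105 and 2126 (4.59), and for each of them reads of an overlapping gene cannot be told apart, as the counting strand is not given. Of chromatin genes, Uhrf1 had 6450 and 83 (−6.03), Dnmt1 10448 and 1712 (−2.36) and Ezh2 2051 and 206 (−3.07), while Kdm6b, a histone demethylase, was higher (77 and 2124, 5.04).

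At 2-fold, 22 genes called higher and 15 called lower without drug were called the opposite way in the regorafenib pair, and some examples follow. Zbtb32 had 417 and 87 counts without drug (−2.01) and 25 and 88 with it (2.27). Mturn had 100 and 396 without drug (2.24) and 1113 and 241 with it (−1.76), and Ms4a4a, which is not one of them and was higher in both pairs, had 17 and 6218 without drug (8.76) and 974 and 2123 with it (1.58). In these 3 genes the M0 libraries differed more than the M1 libraries, and the difference between pairs was not tested.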
